A study of Danio rerio with 6 samples.

Results

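The genes described here were 6 structural genes of the extracellular matrix, taken by their Ensembl identifiers from a table of 27726 genes: the type I collagen genes col1a1a (ENSDARG00000012405), col1a1b (ENSDARG00000035809) and col1a2 (ENSDARG00000020007), the fibronectin genes fn1a (ENSDARG00000019815) and fn1b (ENSDARG00000006526), and sparc (ENSDARG00000019353). They were measured by RNA sequencing in zebrafish (Danio rerio) cells that carried a sox10:dsRed reporter, a red fluorescent marker of the neural crest lineage, and were isolated by flow cytometry at 6 days post fertilization. One group was 3 libraries from wild-type larvae. The other was 3 libraries from larvae with a CRISPR/Cas9 mutation of shoc2, whose columns carry the name D22. All libraries shared the reporter and the age. The labels do not state the number of larvae pooled per library, the clutches, or whether D22 is the only mutant line, so p-values measure the spread between these libraries, which may be technical. shoc2 encodes a leucine-rich repeat scaffold that promotes signalling from RAS to ERK. The study's stated question was how transcription differs in larvae that have lost it.

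Type I collagen is the main fibrillar collagen of skin, bone and tendon. Its chains are folded and modified in the endoplasmic reticulum, secreted as procollagen, trimmed by proteases and then crosslinked into fibrils. Zebrafish carry col1a1a and col1a1b as duplicated counterparts of mammalian COL1A1, and col1a2 encodes a partner chain of the same triple helix. Fibronectin is a glycoprotein that cells assemble into fibrils through integrin receptors and on which other matrix proteins are laid down, and fn1a and fn1b are its duplicated zebrafish genes. Sparc (osteonectin) is a secreted, collagen-binding matricellular protein that is abundant in mineralizing and remodelling tissue. Neural crest cells of the head give rise to cartilage, bone and connective tissue that make such a matrix.

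The libraries held from 20088591 to 21802683 reads assigned to genes. Values are normalized counts, in which the reads of a library are all divided by the same size factor. They are not corrected for gene length, so levels are compared between libraries and not between genes. The transcript of the targeted gene, shoc2, stood at 1194, 959 and 1083 normalized counts in wild-type replicates 1 to 3 and at 844, 798 and 673 in mutant replicates 1 to 3. These values did not overlap, and the mutant mean was 0.715 times the wild-type mean (limma adjusted p = 0.636). The reporter's own gene, sox10, spread 3.52-fold over the 6 libraries, from 8573 normalized counts in wild-type replicate 2 to 30212 in mutant replicate 2, with overlapping genotypes. In bulk libraries such as these, fewer cells of a type and less RNA per cell cannot be told apart.

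All 6 genes passed the filter on low values, with at least 9622 reads in every library. None of the 6 differed between genotypes at a limma Benjamini-Hochberg adjusted p under 0.05, a threshold that 0.00489% of the 20463 genes tested passed. At an unadjusted p under 0.05 there was 1 gene of the 6, fn1b, beside 5.80% of all genes tested. In none of the 6 did the 3 mutant values lie clear of the 3 wild-type values, as they did for 10.6% of all genes tested. The 6 genes had a median log2 fold change of -0.043, beside 0.0078 over all genes tested. edgeR's quasi-likelihood test and DESeq2, run on the whole reads recovered from the table, also called 0 of the 6, with 1 of the 6 at an unadjusted p under 0.05 in each.

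**Figure D1:**
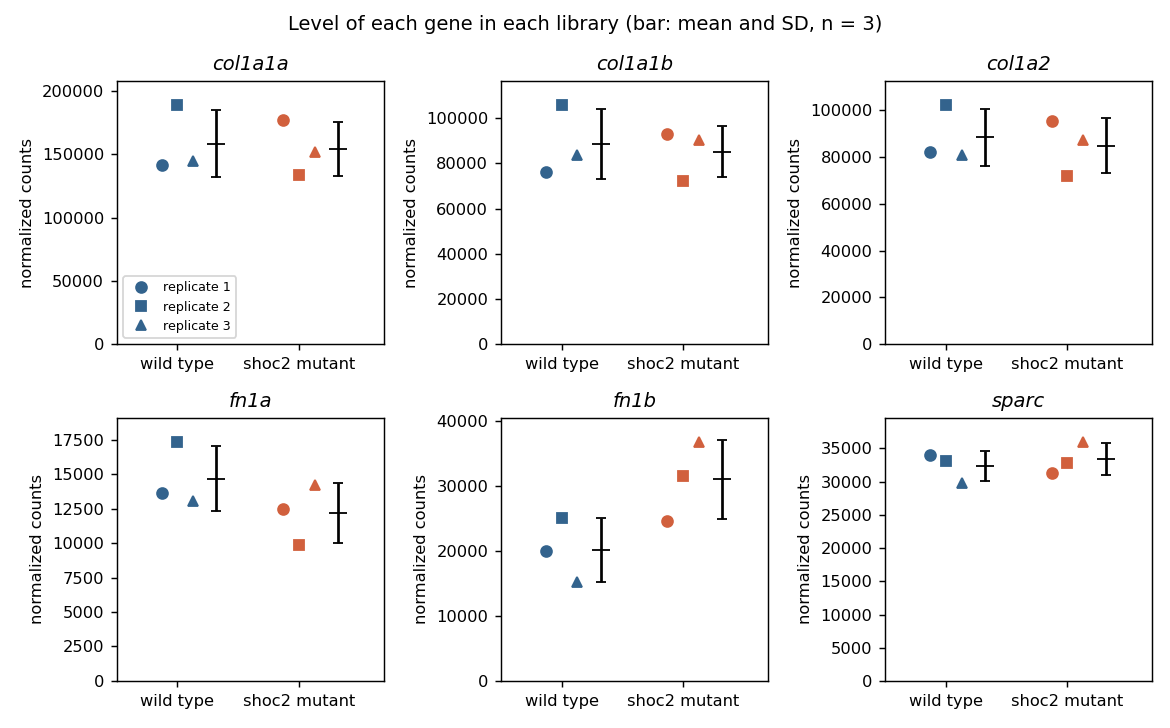
Normalized counts (vertical axis, from 0) of the 6 genes in wild-type and shoc2 mutant libraries; marker shape gives the replicate number, and bars give the mean and SD of 3 libraries. The genotypes overlap in every panel, and for fn1b the overlap is between wild-type replicate 2 at 24989 and mutant replicate 1 at 24527.

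The type I collagen genes had mutant means of 0.973 (col1a1a), 0.962 (col1a1b) and 0.960 (col1a2) times the wild-type means. col1a1a had 141684, 189026 and 144910 normalized counts in wild-type replicates 1 to 3, and 176803, 133792 and 152183 in mutant replicates 1 to 3. Wild-type replicate 2 was the highest of all libraries and mutant replicate 2 the lowest, so each genotype held 1 extreme. The wild-type mean was 158540 ± 26451 and the mutant mean 154260 ± 21580 (SD, n = 3 each). The log2 fold change of mutant over wild type was -0.036 with a 95% limma interval from -0.43 to 0.36, which corresponds to a fold between 0.743 and 1.28 (adjusted p = 0.993).

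Its paralog col1a1b had 76083, 105806 and 83584 normalized counts in wild type and 93117, 72082 and 90210 in mutants, in replicate order. The log2 fold change was -0.051 (95% interval -0.44 to 0.33, limma adjusted p = 0.991). col1a2, the partner chain, had 82213, 102292 and 80733 normalized counts in wild type and 95539, 72031 and 87134 in mutants, with a log2 fold change of -0.060 (95% interval -0.42 to 0.30, limma adjusted p = 0.987). The extremes again fell in replicate 2 of each genotype. Without wild-type replicate 2 the 3 log2 fold changes were 0.097, 0.085 and 0.050, on the other side of 0. Reads of near-identical stretches of col1a1a and col1a1b could have been divided between them or dropped by the counting, whose options are not given in the sources used here.

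Together the 3 type I collagen genes took 1.61% ± 0.228 of all normalized counts in wild-type libraries and 1.57% ± 0.201 in mutant libraries (SD, n = 3 each). The wild-type values of 1.45, 1.87 and 1.52% and the mutant values of 1.73, 1.34 and 1.62% overlapped (exact two-sided permutation p = 0.9). With 3 libraries against 3, the smallest p such a test can give is 0.1. The proportions among the chains varied far less than their levels. col1a1b made up between 34.5 and 37.2% of the reads of col1a1a plus col1a1b in the 6 libraries, and the genotype means were 35.8% ± 0.824 and 35.6% ± 1.44 (SD, n = 3 each, exact permutation p = 0.9). col1a2 made up between 25.8 and 27.4% of the reads of the 3 genes, with means of 26.4% ± 0.868 in wild type and 26.2% ± 0.262 in mutants (SD, n = 3 each, exact permutation p = 0.9). These are shares of reads, not per length, and so do not rank the chains.

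The fibronectin paralogs had estimates on opposite sides of 0. fn1b had 20012, 24989 and 15151 normalized counts in wild-type replicates 1 to 3 and 24527, 31550 and 36755 in mutant replicates 1 to 3. Mutant replicates 2 and 3 exceeded every wild-type library, while mutant replicate 1 lay just below wild-type replicate 2. The wild-type mean was 20051 ± 4919 and the mutant mean 30944 ± 6136 (SD, n = 3 each). Limma estimated a log2 fold change of 0.64 (SE 0.209, 95% interval 0.16 to 1.11), a fold between 1.12 and 2.16. The unadjusted limma p was 0.014, which ranked 426 among 20463 genes, and the adjusted p was 0.671, so the difference did not pass the threshold. edgeR's quasi-likelihood test gave an adjusted p of 0.665 and DESeq2 one of 0.28.

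fn1a, the paralog known from zebrafish mutants to be needed for the migration of the heart primordia to the midline, had 13613, 17365 and 13032 normalized counts in wild type and 12465, 9877 and 14210 in mutants. Mutant replicate 2 was the lowest library and wild-type replicate 2 the highest, and mutant replicate 3 lay inside the wild-type range. The log2 fold change was -0.27 (SE 0.168, 95% interval -0.65 to 0.11, limma adjusted p = 0.947).

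Of the 9 shares compared, the balance of the fibronectin paralogs was the only 1 without overlap between genotypes. fn1b held 59.5, 59.0 and 53.8% of the reads of fn1a plus fn1b in wild-type replicates 1 to 3, and 66.3, 76.2 and 72.1% in mutant replicates 1 to 3. Every mutant library was above every wild-type library. The means were 57.4% ± 3.18 and 71.5% ± 4.95 (SD, n = 3 each), a difference of 14.1 percentage points with an exact permutation p of 0.1, the smallest the design allows. Adjusted over the 9 shares compared, this p was 0.9. The difference was between 11.8 and 16.7 points when each library was left out in turn. On the log2 scale the ratio of fn1b to fn1a was 0.43 ± 0.187 in wild type and 1.34 ± 0.35 in mutants (SD, n = 3 each), a change of 0.91, or 1.88-fold. Such a balance was compared for all 15 pairs of the 6 genes, and 5 of the pairs had ratios that did not overlap between genotypes. The levels of single genes did not overlap for 10.6% of all genes tested, and ratios of other gene pairs were not computed. The 15 ratios reuse the same 6 genes, so the 5 are not separate results. Of those 5, fn1b was a partner in 4, the others in them being col1a1b, col1a2, fn1a and sparc, and the fifth was sparc over fn1a. Each of the 5 had an exact permutation p of 0.1, or 0.3 adjusted over the 15 ratios, so none passed the threshold.

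**Figure D2:**
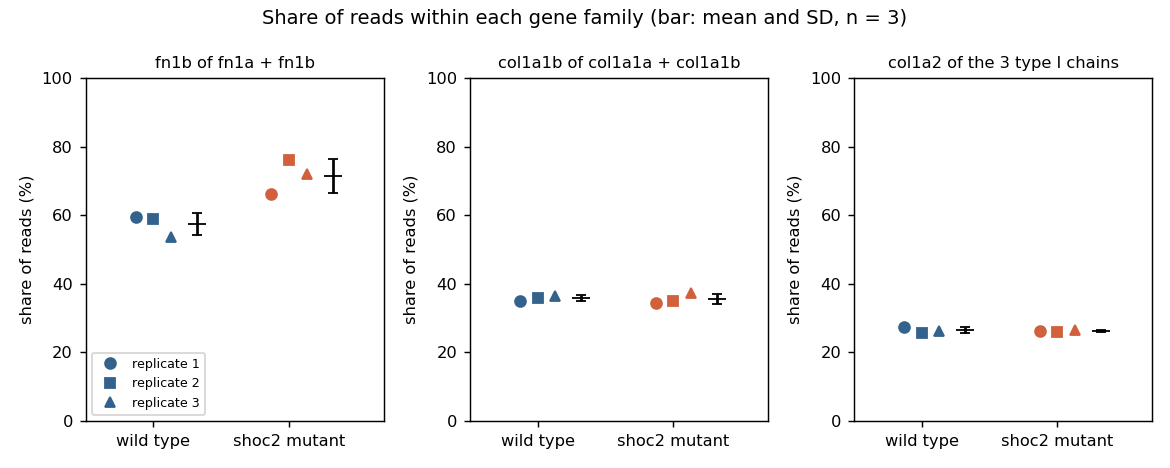
Share of reads (%, vertical axis from 0 to 100) of fn1b within the fibronectin genes, of col1a1b within the col1a1 paralogs and of col1a2 within the type I collagen genes, by genotype; marker shape gives the replicate number, and bars give the mean and SD of 3 libraries. The fn1b shares of 66.3 to 76.2% in mutants lie above the 53.8 to 59.5% of wild type, whereas the collagen shares of the genotypes overlap.

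The fibronectin genes summed took 0.167% ± 0.0309 of all normalized counts in wild type and 0.209% ± 0.0387 in mutants (SD, n = 3 each), and these ranges overlapped (exact permutation p = 0.2). The fn1b share, but not the summed fibronectin level, was clear of overlap between genotypes.

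sparc was the steadiest of the 6 genes, with a 1.21-fold span between its highest and lowest library, where the others spanned from 1.41-fold for col1a1a to 2.43-fold for fn1b. It had 33988, 33189 and 29734 normalized counts in wild type and 31310, 32827 and 36027 in mutants, in replicate order. Its lowest library was wild-type replicate 3 and its highest mutant replicate 3, while the remaining wild-type libraries lay above the remaining mutant libraries, so the genotypes overlapped. The means were 32304 ± 2261 and 33388 ± 2408 (SD, n = 3 each). The log2 fold change was 0.048 with a 95% interval from -0.23 to 0.32, a fold between 0.854 and 1.25 (limma adjusted p = 0.986).

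**Figure D3:**
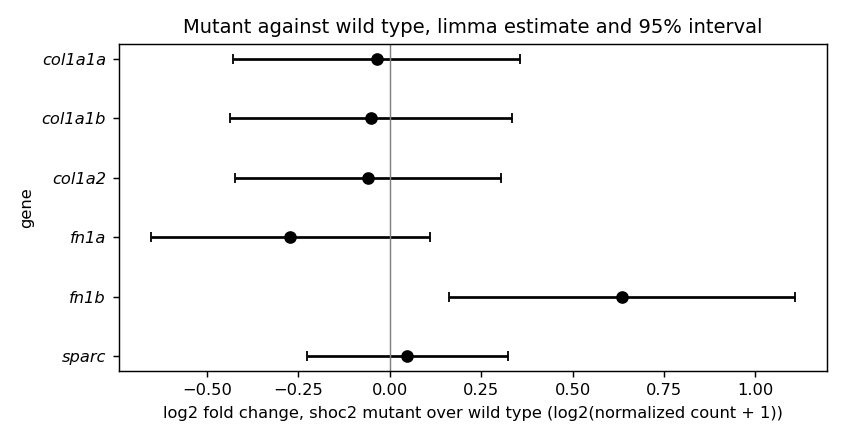
Log2 fold change of shoc2 mutant over wild type (horizontal axis, log2(normalized count + 1) scale) for the 6 genes, with points for limma estimates and bars for 95% intervals that are not adjusted for multiple tests. The interval of fn1b, from 0.16 to 1.11, is the only one of the 6 that does not include 0.

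Across the 6 libraries the type I collagen genes moved together. Pearson's r of log2 values was 0.945 for col1a1a with col1a1b, 0.972 for col1a1a with col1a2 and 0.948 for col1a1b with col1a2. The exact permutation p-values were 0.00417, 0.00278 and 0.00694, or 0.0312, 0.0312 and 0.0347 after Benjamini-Hochberg adjustment over the 15 pairs. Spearman's rho was 1, 0.943 and 0.943, with exact adjusted p-values of 0.0417, 0.0833 and 0.0833. Without the pair of libraries farthest from the median, r was 0.969, 0.952 and 0.800. For deviations from the genotype means it was 0.945, 0.974 and 0.948. The libraries share their cell composition and normalization across genes, and the col1a1 paralogs may share reads.

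None of the other 12 pairs passed the adjusted threshold by either coefficient. fn1a followed the collagen genes with r between 0.694 and 0.809 (smallest exact adjusted p = 0.183). This relation rested on replicate 2 of both genotypes for col1a1b and col1a2, since r became -0.279 and -0.447 without them, while for col1a1a it was 0.89 without wild-type replicate 2 and mutant replicate 1. fn1b with the collagen genes gave r between 0.0177 and 0.0784, and fn1b with fn1a gave -0.131. For deviations from the genotype means, r was 0.193 to 0.286 for fn1b with the collagen genes and 0.557 for fn1b with fn1a. It was 0.774 to 0.885 for fn1a with the collagen genes and 0.867 for fn1b with sparc. These values were not tested. sparc correlated most with fn1b among the 6 genes, at r = 0.747 (exact p = 0.0833, adjusted 0.208), and r was -0.355 without wild-type replicate 3 and mutant replicate 3.

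**Figure D4:**
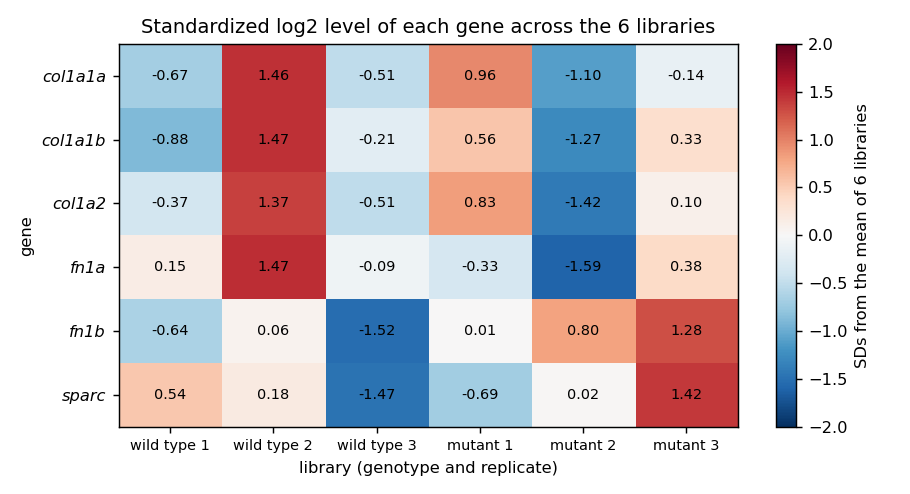
Log2 level of each gene (rows) in each library (columns), written and coloured in SDs from that gene's mean over the 6 libraries. The type I collagen genes and fn1a are highest in wild-type replicate 2 (1.37 to 1.47 SDs) and lowest in mutant replicate 2 (-1.10 to -1.59 SDs), and fn1b and sparc are lowest in wild-type replicate 3 and highest in mutant replicate 3.

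Other genes of the same matrix were taken from 4 lists. The first held 40 genes for the folding, modification, secretion, trimming and crosslinking of type I collagen, of which 0 passed limma's adjusted threshold. At an unadjusted p under 0.05, 8 were higher and 2 lower in mutants, where 2.88% of all genes tested were higher and 2.91% lower. This total of 10 was 5 without wild-type replicate 3, 6 without mutant replicate 2 or mutant replicate 3, 5 with the replicate number as a block, and 5 without the variance trend. The list's median log2 fold change was 0.079, beside 0.0078 for all genes tested. Its summed level ran from 96267 to 104900 normalized counts in wild type and from 87789 to 97343 in mutants, with overlap (exact permutation p = 0.2). For SERPINH1 (ENSDARG00000019949), the collagen-specific chaperone Hsp47, normalized counts were 40450, 46036 and 41998 in wild-type replicates 1 to 3 and 31506, 23596 and 29992 in mutant replicates 1 to 3. The genotypes did not overlap and the log2 fold change was -0.60 (SE 0.143, limma adjusted p = 0.405). DESeq2 called this gene (adjusted p = 0.032), while edgeR's quasi-likelihood test did not (adjusted p = 0.333). Another SERPINH1 gene (ENSDARG00000075954) had means of 1818 and 1477 normalized counts, with overlapping genotypes. Its log2 fold change was -0.30, with an adjusted p of 0.874 in limma and 0.909 in DESeq2. LOXL4 (ENSDARG00000025089), of the lysyl oxidase family that crosslinks collagen, had means of 1220 ± 294 and 2344 ± 369.7 normalized counts (SD, n = 3 each). Its groups did not overlap, and its adjusted p was 0.336 in limma, 0.347 in edgeR and 0.0135 in DESeq2. Another LOXL4 gene (ENSDARG00000105442) had means of 637 and 672 normalized counts, with overlapping genotypes (limma adjusted p = 0.983). DESeq2 called 0.757% of all genes tested and edgeR 0.00%.

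The other fibrillar collagens numbered 12, of which 0 passed limma's adjusted threshold. At an unadjusted p under 0.05, 4 were higher and 1 lower, where 2.88% of all genes tested were higher and 2.91% lower. DESeq2 called 3 higher and 1 lower, beside 0.757% of all genes tested in both directions together. The list's median log2 fold change was 0.041, with 6 genes above 0 and 6 below. The 4 higher genes were both COL2A1 genes, COL11A1 and COL11A2. For COL5A1, COL5A2 and col11a1b the log2 fold changes were -0.0013, -0.10 and 0.083. The summed level was 403143 to 469206 normalized counts in wild type and 630672 to 745426 in mutants, without overlap (exact permutation p = 0.1). Its largest part was COL2A1 (ENSDARG00000069093), with means of 170814 in wild type and 325026 in mutants, against 443203 and 684203 for the sum. That gene was among the 4 higher ones, so the sum does not show the list raised as a class. COL2A1 (ENSDARG00000069093), the main collagen of cartilage, had 198299, 130639 and 183504 normalized counts in wild type and 287056, 373858 and 314164 in mutants, in replicate order. The genotypes did not overlap, with a log2 fold change of 0.94 (limma adjusted p = 0.336, DESeq2 adjusted p = 0.00392). col5a3a (ENSDARG00000098294), a type V chain that associates with type I fibrils, averaged 302.1 ± 10.7 normalized counts in wild type and 150.3 ± 15.01 in mutants (SD, n = 3 each). Its log2 fold change was -1.01 (limma adjusted p = 0.227, DESeq2 adjusted p = 0.000425).

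Of 22 receptor genes for fibronectin or collagen, 0 passed limma's adjusted threshold and DESeq2 called 0. At an unadjusted p under 0.05, 2 were higher and 1 lower, beside 2.88% and 2.91% of all genes tested. That total of 3 was 1 without mutant replicate 3, 5 without wild-type replicate 1 and 0 without the variance trend. Their median log2 fold change was -0.073, with 8 above and 14 below 0. Their summed level ran from 50721 to 53662 normalized counts in wild type and from 45337 to 49066 in mutants. These ranges did not overlap (exact permutation p = 0.1). The largest part of the sum was sdc4, with means of 20538 in wild type and 16747 in mutants. Its 19393, 17564 and 24659 normalized counts in wild type and 16811, 15946 and 17484 in mutants did not overlap either. The sum therefore does not show the receptors lower as a class. Of the 22 genes, 1 was higher and 3 lower in mutants without overlap, where 5.29% and 5.28% of all genes tested were. The smallest p-values in the list belonged to ITGA10, a collagen-binding integrin subunit, with means of 1733 ± 265 and 2206 ± 216 normalized counts (SD, n = 3 each, limma adjusted p = 0.82), and DDR2 (ENSDARG00000058695), a collagen-binding receptor tyrosine kinase, with means of 1736 ± 579 and 2482 ± 290.3 (SD, n = 3 each, limma adjusted p = 0.832). Another DDR2 gene (ENSDARG00000100693) had means of 2600 and 2694 (limma adjusted p = 0.989). The 1 lower gene was ITGAV, with means of 3082 in wild type and 2354 in mutants (limma adjusted p = 0.833). Of 42 other matricellular and fibril-associated genes, 0 passed limma's adjusted threshold and DESeq2 called 0. At an unadjusted p under 0.05, 2 were higher and 3 lower, beside the same 2.88% and 2.91% of all genes tested. The total of 5 was 8 without wild-type replicate 1 and 6 without wild-type replicate 2. It was 4 without mutant replicate 2, with the replicate number as a block, or without the variance trend. Without overlap, 1 of the 42 was higher and 6 were lower in mutants, beside 5.29% and 5.28% of all genes tested. The median log2 fold change of the 42 genes was -0.18, with 10 above and 32 below 0. All genes tested had 10536 above and 9927 below. The summed level of the 42 ran from 237589 to 302086 normalized counts in wild type and from 208410 to 276659 in mutants. These ranges overlapped (exact permutation p = 0.8), so the sum does not show the list lower as a class. SMOC2, a relative of sparc, had means of 467.9 ± 46.5 and 328.8 ± 11.6 normalized counts (SD, n = 3 each, limma adjusted p = 0.631). THBS1 (ENSDARG00000010785), a thrombospondin, had means of 16634 ± 2803 and 25706 ± 5582 (SD, n = 3 each, limma adjusted p = 0.636), and its genotypes overlapped. Another THBS1 gene (ENSDARG00000103775) had means of 5103 and 6408, also with overlap (limma adjusted p = 0.964).

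**Figure D5:**
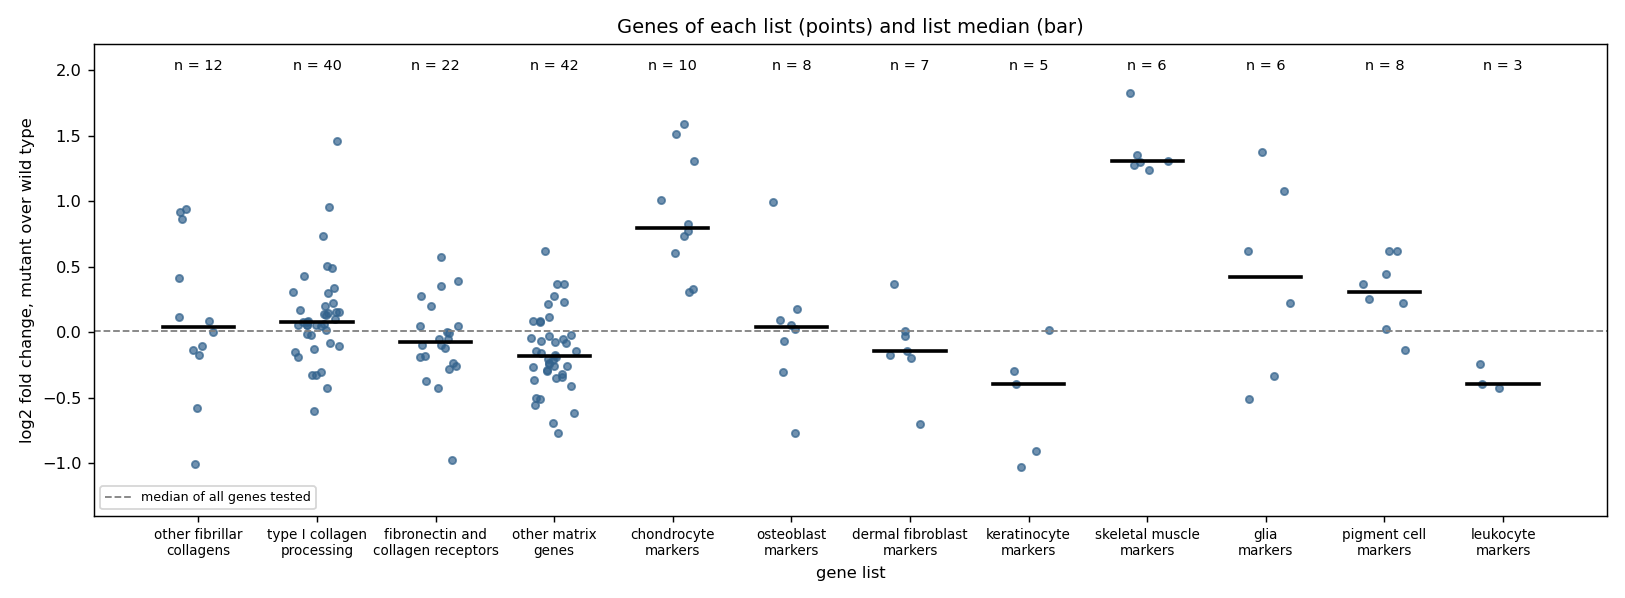
Log2 fold change of mutant over wild type (vertical axis) for each tested gene (points) of the 4 matrix lists and 8 marker lists, with bars for list medians and a dashed line for the median of all genes tested (0.0078). The medians of the matrix lists lie between -0.18 and 0.079, and all 10 chondrocyte and all 6 skeletal muscle markers lie above 0.

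Markers of the cell types that such a sort could hold varied between libraries as well. All 10 chondrocyte marker genes had limma estimates above 0 in mutants, from 1.24-fold to 3.01-fold, and 9 of them did not overlap between genotypes, as was so for 5.29% of all genes tested in that direction (5.28% in the other). None passed limma's adjusted threshold (smallest adjusted p = 0.436), and DESeq2 called 4, beside 0.757% of all genes tested. Their summed level was 145336, 88772 and 118778 normalized counts in wild-type replicates 1 to 3 and 167940, 232600 and 197438 in mutant replicates 1 to 3, without overlap (exact permutation p = 0.1). This list was higher in the genotype with the higher fn1b share. Its part in the fn1b share, which had an adjusted exact permutation p of 0.9, was not tested.

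Wild-type replicate 2 had the least of these chondrocyte transcripts and the highest values of col1a1a, col1a1b, col1a2 and fn1a. Mutant replicate 2 had the most of them and the lowest values of the same genes. The other libraries did not all follow this order. Mutant replicate 1, with a chondrocyte sum of 167940, was above every wild-type library in that sum. Its col1a1a (176803), col1a1b (93117) and col1a2 (95539) were exceeded only in wild-type replicate 2. Its fn1a, at 12465, was below every wild-type library. The 5 keratinocyte markers summed to 41736, 132096 and 104021 normalized counts in wild type and 41098, 61302 and 35702 in mutants. The highest sum was that of wild-type replicate 2. Among mutants the highest was that of mutant replicate 2, where the type I collagen genes were lowest. The sum was carried by krt4 and krt5, which with TP63 were highest in wild-type replicate 2. For cdh1 that library was the lowest, at 1591 normalized counts, and for epcam it stood at 4363, against 8988 in wild-type replicate 3. The part of either cell type in the library-to-library spread of type I collagen was not tested. Osteoblast markers (9 genes, 1 of them at 0 in every library) summed to between 20295 and 27398 normalized counts in wild type and between 21301 and 28463 in mutants. Dermal fibroblast markers (7 genes) summed to between 29195 and 36619 in wild type and between 25562 and 36980 in mutants. Both ranges overlapped, with exact permutation p-values of 1. Most of the osteoblast sum came from COL10A1 (ENSDARG00000054753), with means of 19115 and 19470.4 normalized counts in wild type and mutants. In the same list spp1, which encodes osteopontin, had 3462, 1416 and 1681 normalized counts in wild-type replicates 1 to 3 and 1086, 1212 and 1261 in mutant replicates 1 to 3, without overlap (limma adjusted p = 0.772). It was the only 1 of the 8 tested osteoblast markers without overlap, where 10.6% of all genes tested had none. Of the 8, 5 had log2 fold changes above 0 and 3 below.

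Skeletal muscle markers (6 genes) spanned 6348 to 43723 normalized counts in wild type and 10477 to 88244 in mutants. Glia markers (6 genes) spanned 24896 to 73440 in wild type and 33288 to 71025 in mutants. The glia list includes sox10, the reporter's own gene. Its means were 16325 in wild type and 24023 in mutants, against 44597 and 53613 for the glia sum. Pigment cell markers (8 genes) spanned 12416 to 15073 in wild type and 13318 to 24594 in mutants, and leukocyte markers (3 genes) 1357 to 2613 and 874.1 to 2038. These sums overlapped between genotypes for all 4 cell types.

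The genes whose pattern over the 6 libraries was most like the mean standardized log2 level of the 6 matrix genes were sought among the 16692 other tested genes that averaged 50 or more normalized counts. Those with a symbol and the highest Pearson's r were VPS26A (0.989), BOK (0.983), PDIK1L (0.982), DLX2 (0.981) and dlx4b (0.978). Of the 16692 genes, 43 had r above 0.95, and the number to be had by chance was not computed. The 6 genes averaged did not all move together, with r = -0.131 for fn1a with fn1b and -0.0492 for col1a1a with sparc. For deviations from the genotype means these were 0.557 and -0.0225. VPS26A encodes a subunit of the retromer sorting complex, BOK a BCL2-family protein, and DLX2 and dlx4b distal-less homeobox transcription factors. DLX2 had 636, 851 and 549 normalized counts in wild-type replicates 1 to 3 and 690.4, 579 and 814 in mutant replicates 1 to 3. It was thus highest in wild-type replicate 2, as the type I collagen genes were, and its genotypes overlapped. This likeness over 6 libraries is a description of rank and spacing only.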

How the data were processed

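One table held 27726 genes in 6 libraries, 3 per genotype, grouped by the source name in the labels; columns were matched by sample title. The deposited values are a signal in normalized counts, per the name the authors gave the table (HTSeq normalized counts). In each column 100% of values were whole multiples of 1 step within 0.01 reads, so reads were recovered as value over step. FastQC 0.11.7, STAR 2.6, Cuffnorm and the build GRCz11 are named in the submitters' processing notes, with no role. The annotation, strand and counting options are not given in the sources used here. Depth was 20088591 to 21802683 reads; at no fewer than 9622 reads per gene here, counting error is small beside the spread between libraries.

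The reference table paired 25324 identifiers with symbols. It names col1a1b COL1A1 and both fibronectin genes FN1, so the paralog names here come from the list of identifiers by which the genes were chosen. Of 176 list symbols, 109 matched directly and 55 after removing a paralog letter, a step chosen after the table was seen. Genes with at least 10 normalized counts in at least 3 libraries were kept (20463). Mutant and wild type were compared on log2(normalized count + 1) with limma 3.58.1 (trend, Benjamini-Hochberg over all genes tested, threshold 0.05) in R 4.3.3. This scale understates changes of low genes. edgeR 4.0.16 and DESeq2 1.42.0 on recovered reads, other pseudocounts, filters and scalings, no variance trend, a block for replicate number and the omission of each library were alternatives. Shares, ratios and correlations used exact permutation tests (SciPy 1.17.1). Limma, edgeR and DESeq2 were run first on simulated counts with known changes. Those changes were larger than any difference described here, so that run does not bear on differences of this size. The genes and lists were chosen with earlier results of these data known. Named beside the 6 genes by rule were the 5 most similar genes with a symbol and the 2 smallest p-values of each matrix list. Other list genes, such as krt4, krt5, TP63, cdh1, epcam, COL10A1, spp1, ITGAV and COL11A1, were named after their values were seen. No sequences or coordinates were used here.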

Additional observations from a re-analysis of the deposited data

How the results depend on the processing

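None of the 6 genes passed the adjusted threshold under any of the 17 alternatives run for each. fn1b kept its direction in all 17, with log2 fold changes from 0.45 to 0.81, adjusted p from 0.28 (DESeq2) to 1.00 (replicate block) and unadjusted p under 0.05 in 16; without mutant replicate 3 that p was 0.060. fn1a kept its direction in all 17 (-0.39 to -0.13). With quantile normalization, which sets values by rank, the log2 fold change of col1a1a was 0.18, against -0.036 as deposited. By level within its library, col1a1a ranked 6, 3 and 7 in wild-type replicates 1 to 3 and 3, 4 and 3 in mutant replicates 1 to 3. Under quantile normalization these ranks set the values of col1a1a, and so the sign of its estimate. What made the ranks differ was not tested. With each library left out it ran from -0.139 to 0.0971 for col1a1a, -0.153 to 0.0853 for col1a1b, -0.150 to 0.0539 for col1a2 and -0.0110 to 0.0927 for sparc. Differences of shares in percentage points, mutant minus wild type, ran from -1.05 to 0.313 for col1a1b within the col1a1 paralogs, -0.589 to 0.235 for col1a2, -0.129 to 0.0847 for type I collagen of all, -0.00187 to 0.0127 for sparc of all, -0.0786 to 0.15 for the 6 genes of all and -0.0353 to 1.60 for sparc relative to type I collagen.

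The count of genes past the threshold in the whole table, 1 in limma, was 155 with DESeq2, 0 with edgeR's quasi-likelihood test (1232 at an unadjusted p under 0.05), 3 without a filter, 0 without the variance trend (1227 unadjusted), 0 with the replicate block (906 unadjusted), and 0 to 4 with a library left out, 4 being without wild-type replicate 2. DESeq2 called 2 genes of the collagen processing list and 4 other fibrillar collagens, where limma called 0. Under the block, list genes at an unadjusted p under 0.05 numbered 5 instead of 10 for collagen processing, 2 instead of 3 for receptors, 4 instead of 5 for other matrix genes and 5, as without it, for other fibrillar collagens; edgeR and DESeq2 were not run with a block. Deviations of same-numbered libraries correlated at -0.202, -0.0288 and -0.0918, so libraries of equal number did not deviate alike. This cannot exclude a clutch or batch shared by equal numbers, which the labels do not state.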
